A study of Homo sapiens with 8 samples.

Results

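Peaks of succinylated histone H3 lysine 23 (H3K23su) and acetylated histone H3 lysine 27 (H3K27ac) were followed around 10 genes of the Notch pathway in a colorectal cancer line and in a derivative that resists 5-fluorouracil (5-FU). The genes were 3 receptors (NOTCH1, NOTCH2 and NOTCH3), 4 ligands (JAG1, JAG2, DLL1 and DLL4), HES1 and HEY1, which are target genes of the pathway, and ATOH1, a factor that HES1 represses. They were chosen by name, not by a cut on their values, from the 20136 coding genes of GENCODE release 44 on hg19. Earlier results of these data were known when they were chosen. For each gene, peaks were taken within 2 kb of the transcription start site (TSS), here called the promoter, in the gene body and within 50 kb on either side. The 10 windows lie on 10 different chromosomes and share no peak. They held 166 of the 122500 H3K23su regions and 168 of the 133786 H3K27ac regions, a region being the union of overlapping peaks from the 4 libraries of a mark.

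HCT15 is an established human colorectal cancer cell line. The labels give the solvent DMSO as the treatment of the parental line, HCT15-Pa, and 20 μg/ml 5-FU, a pyrimidine analog used in chemotherapy, as that of the resistant line, HCT15-FR. The study's methods name no DMSO for HCT15-Pa, which they describe as grown without drug, and state that HCT15-FR cells were kept without 5-FU for some days before experiments. Resistance and the history of drug treatment cannot be told apart in this pair of lines, and whether HCT15-FR is 1 clone is not given in the sources used here. Each line was profiled by CUT&Tag, in which an antibody guides a transposase to a histone mark, with 2 libraries per mark and line from about 50000 cells each. The labels do not say whether the 2 libraries of a group came from separate cultures, so the tests measure only the spread between libraries, which may be technical.

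Notch receptors are bound by ligands of the Jagged and Delta-like families on a neighbouring cell. Cleavage by gamma-secretase then frees the receptor's intracellular domain, which enters the nucleus and acts with the DNA-binding protein RBPJ and Mastermind-like coactivators on targets such as the HES and HEY repressors. In the intestinal epithelium the pathway maintains progenitors, and HES1 restrains ATOH1, the factor required for goblet, Paneth and enteroendocrine cells. H3K27ac marks active promoters and enhancers, and H3K23su is an acyl mark of the same histone tail.

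The lists held 65364 to 68365 H3K23su peaks and 70600 to 76676 H3K27ac peaks. In both marks the HCT15-FR lists covered more of the genome, with 39.7 ± 0.467 Mb against 33.3 ± 0.368 Mb for H3K23su and 46.5 ± 0.220 Mb against 39.2 ± 0.515 Mb for H3K27ac (mean ± SD, n = 2 libraries). The number of reads behind each peak was not used here, so a missing peak means only that none passed the authors' threshold. As a check of identity, 7 of 9 colon epithelium markers had an H3K23su promoter peak in all 4 libraries and 8 of 9 an H3K27ac peak. Of 7 markers of fibroblasts, endothelium and immune cells, 0 and 1 did.

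Promoter regions in both libraries of 1 line alone were found at DLL1, DLL4, HES1 and NOTCH3. At the TSS used here, the DLL1 promoter carried H3K23su and H3K27ac in all HCT15-FR libraries. No HCT15-Pa library had a peak of either mark there. The annotated DLL1 gene reaches further upstream, and peaks of both marks lay over that end in every library. The DLL4 promoter had H3K27ac in all 4 libraries and H3K23su in both HCT15-FR libraries alone. HES1 had an H3K27ac promoter region in both HCT15-FR libraries alone, beside another that was present in all 4 libraries. The NOTCH3 promoter had H3K27ac in both HCT15-FR libraries alone. Over the whole windows, the covered length of DLL4 and HES1 was higher in HCT15-FR for both marks, and that of JAG1 and NOTCH2 for H3K27ac, in a limma fit over all coding genes. The fit called 20.6% of all genes higher for H3K23su and 19.6% for H3K27ac. With each library centred on its median, only DLL4 kept its call for H3K23su, and HES1 and JAG1 theirs for H3K27ac. ATOH1 had no peak in any of the 8 lists.

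H3K23su promoter peaks were present in all 4 libraries at 3 of the 10 genes (NOTCH1, NOTCH2 and JAG1), where 54.7% of coding genes had them. They were present in both HCT15-FR libraries alone at DLL1 and DLL4, a class that held 1.87% of coding genes, and in both HCT15-Pa libraries alone at none of the 10, against 1.71%. H3K27ac promoter peaks were present in all 4 libraries at 6 of 10 genes (NOTCH1, NOTCH2, JAG1, DLL4, HES1 and HEY1), against 59.0% of coding genes. They were found in both HCT15-FR libraries alone at DLL1 and NOTCH3, against 1.42%, and in both HCT15-Pa libraries alone at none of the 10, against 2.19%. ATOH1 had none, like 33.4% of coding genes for H3K23su and 26.5% for H3K27ac, and the remaining genes had peaks in other combinations of libraries.

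**Figure D1:**
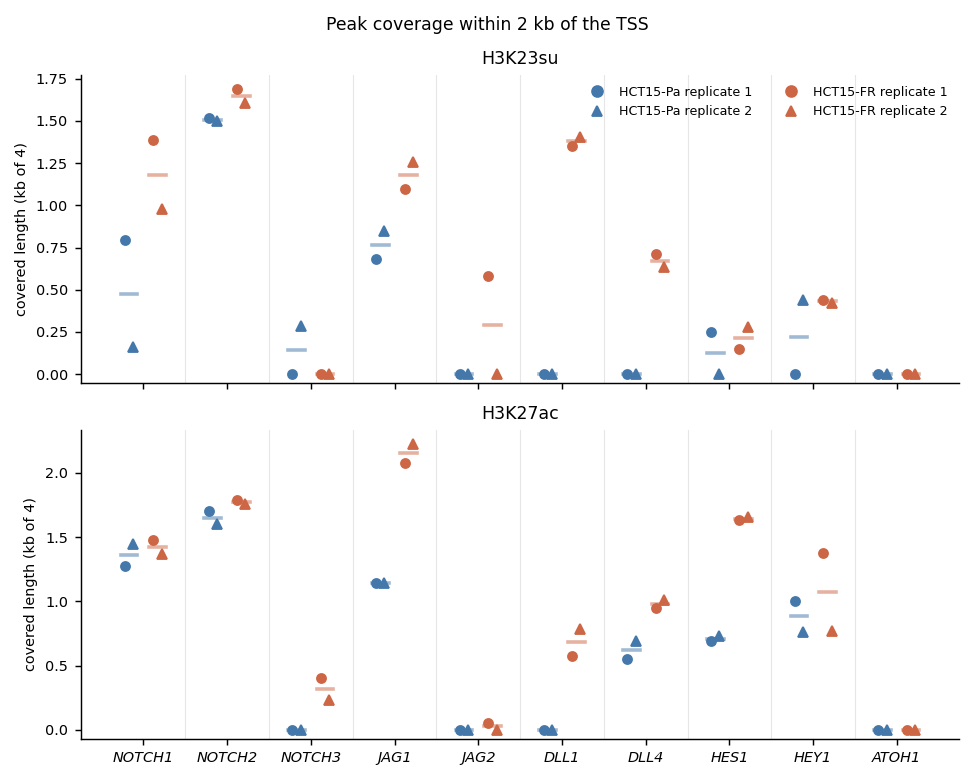
Length covered by peaks within 2 kb of the TSS of each Notch gene (y axis, kb) for H3K23su (top) and H3K27ac (bottom). Points are single libraries, blue HCT15-Pa and orange HCT15-FR, and bars are means of 2. DLL1 was at 0 in all HCT15-Pa libraries of both marks and at 576 to 1406 bp in the HCT15-FR libraries.

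Of the 166 H3K23su regions in the windows, 38 were present in all 4 libraries, 11 in both HCT15-FR libraries alone (FR-only), 6 in both HCT15-Pa libraries alone (Pa-only), 77 in a single library and 34 in other combinations. FR-only regions were 6.63% of the total, beside 7.95% over the genome, and Pa-only regions 3.61%, beside 5.01%. The shared and single regions were 22.9% and 46.4%, beside 23.9% and 46.8%. Of the 168 H3K27ac regions, 54 were shared by all 4 libraries, 17 were FR-only, 5 Pa-only, 62 single and 30 other. FR-only regions were 10.1% beside 9.08% over the genome, and Pa-only regions 2.98% beside 4.53%, while the shared and single regions were 32.1% and 36.9% beside 25.2% and 46.1%. At least 1 FR-only H3K23su region lay in the windows of 5 of the 10 genes, beside 48.6% of coding genes, and at least 1 FR-only H3K27ac region in those of 7, beside 53.4%. Pa-only regions lay in the windows of 5 genes for H3K23su, beside 35.6%, and of 4 for H3K27ac, beside 33.9%. The count of line-specific regions around these genes was thus near that of the genome, and the 17 FR-only H3K27ac regions were spread over 7 genes with 6 at NOTCH2 and 4 at HES1.

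The line-specific regions were distal to the TSS used for each gene, with few exceptions. None of them lay within 2 kb of the TSS of another coding gene, while 2 FR-only H3K23su and 3 FR-only H3K27ac regions lay within 2 kb of the TSS of the Notch gene itself. H3K27ac was FR-only as well at 4 of the 11 FR-only H3K23su regions, was present in all 4 libraries at 6, and was missing at 0. Among the 17 FR-only H3K27ac regions, 4 overlapped FR-only H3K23su, 2 overlapped shared H3K23su and 4 overlapped none. The same shares over all FR-only regions of the genome are not given here, so these counts are not read as particular to the Notch genes. No region that was specific to 1 line in one mark overlapped a region specific to the other line in the other mark. The weaker peak of the 2 libraries had a median percentile in its own list of 35.4 for FR-only H3K23su and 23.1 for FR-only H3K27ac. For Pa-only regions it was 22.3 for H3K23su and 20.2 for H3K27ac. Taking the lower of 2 values by itself puts such a median below the middle of a list. The same median over the genome is not given here.

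**Figure D2:**
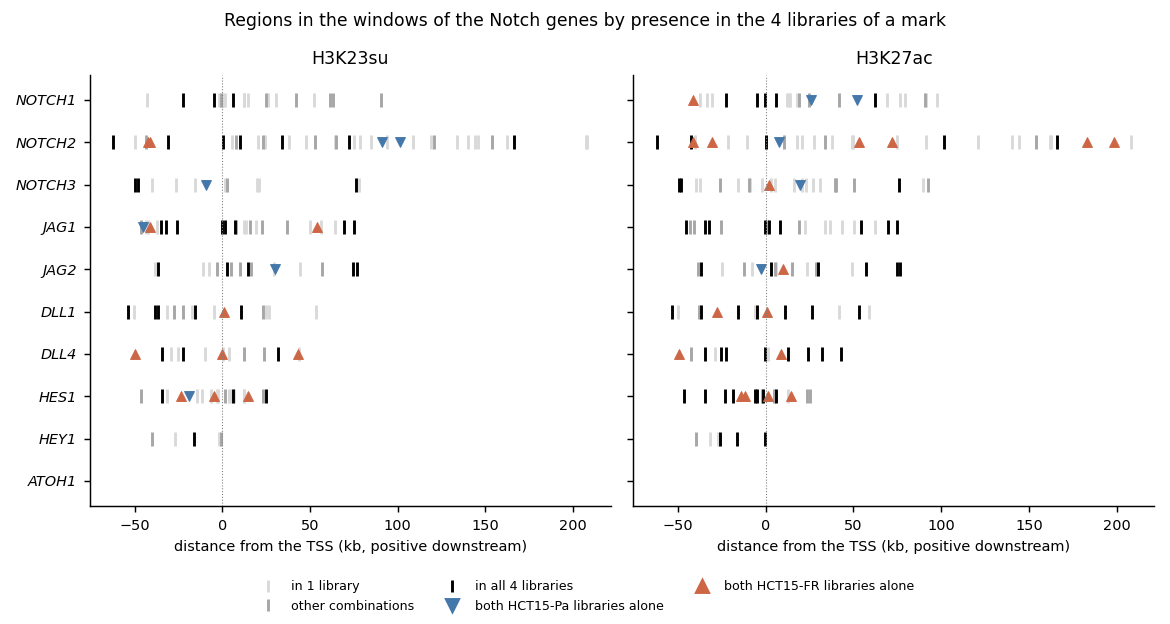
Midpoints of all 166 H3K23su and 168 H3K27ac regions of the 10 windows by distance from the TSS (x axis, kb, positive downstream), 1 row per gene. Orange triangles are the 11 and 17 FR-only regions, blue triangles the 6 and 5 Pa-only regions, black ticks regions present in all 4 libraries, and grey ticks the rest. The ATOH1 row is empty in both panels.

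Among the ligands, JAG1, a Jagged-family ligand, had the longest H3K27ac coverage. Peaks covered 7894 and 6334 bp of its window in the HCT15-Pa libraries and 13999 and 13436 bp in the HCT15-FR libraries. The groups did not overlap, as for 48.3% of coding genes with HCT15-FR above HCT15-Pa in this mark. In limma on log2(covered bp + 500) over 18879 genes the change was 0.91 (95% interval 0.64 to 1.17, adjusted P = 0.00327), where the median of all genes was 0.18. The number of peaks did not differ in the same way, with 16 and 15 in HCT15-Pa and 16 and 14 in HCT15-FR. JAG1 had no FR-only H3K27ac region, and 8 of its 9 shared regions covered more bases in both HCT15-FR libraries than in either HCT15-Pa library, beside 36.7% of shared regions over the genome.

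The widest of these, chosen after its values were seen, lies in an intron of JAG1 at chr20:10645029-10647526 (hg19, midpoint 8369 bp downstream of the TSS). Its H3K27ac peaks covered 225 and 201 bp in HCT15-Pa and 2498 and 2220 bp in HCT15-FR. The peaks of the HCT15-Pa libraries did not overlap each other there, and the HCT15-FR peaks joined them into 1 region. At the JAG1 promoter H3K27ac covered 1140 and 1146 bp in HCT15-Pa and 2081 and 2222 bp in HCT15-FR, and H3K23su covered 682 and 849 bp against 1097 and 1256 bp. Over the whole window H3K23su covered 8264 and 7130 bp in HCT15-Pa and 8670 and 8904 bp in HCT15-FR, a log2 change of 0.18 (95% interval −0.09 to 0.46, adjusted P = 0.272 in limma), below the median of 0.24 over 18257 genes.

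JAG1 held 2 FR-only H3K23su regions and 1 Pa-only region. The FR-only region 41149 bp upstream of the TSS (chr20:10695658-10695934) had scores of 5.64 and 5.47, where the score is, per the file headers, a −log10 P value of the peak. It ranked highest among the FR-only H3K23su regions of the flanks. The Pa-only region 45297 bp upstream (chr20:10699441-10700446) had scores of 4.34 and 4.08 and lay over H3K27ac present in all 4 libraries. The sequence of the FR-only region, read in the direction of JAG1 from hg19, is shown because it is the strongest of its class, with 1 exact match to the AP-1 element TGACTCA or TGAGTCA in capitals:
JAG1 −41149 bp: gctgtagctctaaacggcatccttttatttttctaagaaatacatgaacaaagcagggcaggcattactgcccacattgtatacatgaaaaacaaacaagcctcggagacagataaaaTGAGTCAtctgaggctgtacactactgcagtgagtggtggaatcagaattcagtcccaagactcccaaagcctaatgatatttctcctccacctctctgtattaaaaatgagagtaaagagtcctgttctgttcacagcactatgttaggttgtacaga
Among the middle 300 bases of all H3K23su regions, 10.3% held such a match on either strand. Of the 14 named H3K23su regions, 2 did, this FR-only region and a Pa-only region. A match is a string of letters and not a site of binding.

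JAG2, the other Jagged-family ligand, gave no call in either mark outside the alternative settings. H3K23su covered 6747 and 5850 bp of its window in HCT15-Pa and 7060 and 5468 bp in HCT15-FR, so that the groups overlapped. H3K27ac covered 6689 and 6054 bp against 8319 and 8103 bp, with a log2 change of 0.34 (95% interval 0.10 to 0.59, adjusted P = 0.0503 in limma). Over 12 alternative settings this change ranged from 0.13 to 0.80, and it passed the threshold in 3 of them. The promoter of JAG2 was free of both marks in HCT15-Pa, and in HCT15-FR only replicate 1 reached into it, with 582 bp of H3K23su and 56 bp of H3K27ac. An H3K27ac region 9860 bp into the gene was FR-only (388 and 233 bp), and a region 2737 bp upstream of the TSS was Pa-only (531 and 237 bp). Its only line-specific H3K23su region, 30136 bp downstream of the TSS, was Pa-only, and its peak in HCT15-Pa replicate 1 stood at percentile 0.216 of its list.

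DLL1, a Delta-like ligand, was the Notch gene whose promoter, at the TSS used here, was FR-only in both marks. The annotated gene reaches upstream to chr6:170615653, where every library of both marks had a peak. H3K23su covered 0 and 0 bp of the promoter in HCT15-Pa and 1350 and 1406 bp in HCT15-FR. The region (chr6:170598477-170599897) overlaps annotated exon and UTR sequence, and its peaks had scores of 5.39 and 5.15, the weaker one at percentile 63.7 of its list. H3K27ac covered 0 and 0 bp against 576 and 788 bp at chr6:170599041-170600005, with scores of 6.34 and 3.80. Both marks thus occupied the same stretch just downstream of the DLL1 TSS in HCT15-FR, and the H3K27ac peak of replicate 2 was the weaker one, at percentile 26.6 of its list.

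The rest of the DLL1 window differed less. H3K23su covered 4822 and 5451 bp in HCT15-Pa and 6404 and 5845 bp in HCT15-FR over the whole window, a log2 change of 0.23 (95% interval −0.08 to 0.55, adjusted P = 0.226 in limma). With 10 kb instead of 50 kb on either side the values were 2200 and 2454 bp against 3642 and 4446 bp, and the change passed the threshold (0.68, adjusted P = 0.0497), where 8.07% of 16603 genes were called higher. For H3K27ac over the whole window, HCT15-FR replicate 2 stood apart with 7264 bp, while replicate 1 had 4715 bp and the HCT15-Pa libraries 4875 and 4925 bp. The window also holds the TSS of the neighbouring gene FAM120B.

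DLL4, the second Delta-like ligand, had the largest H3K23su difference of the 10 genes. Peaks covered 3935 and 2785 bp of its window in HCT15-Pa and 7195 and 8646 bp in HCT15-FR, and their number was 4 and 6 against 10 and 13. Both HCT15-FR libraries were above both HCT15-Pa libraries, as at 48.1% of coding genes in this mark. The log2 change was 1.14 (95% interval 0.70 to 1.57, adjusted P = 0.0105 in limma over 18257 genes), and 98.0% of genes had a smaller value. It was 1.83 with 10 kb on either side, and the call was lost in the stronger 50% of each list (0.73, adjusted P = 0.118). H3K27ac covered 6825 and 6267 bp against 8769 and 8602 bp, a log2 change of 0.38 (95% interval 0.15 to 0.62, adjusted P = 0.0316). That call was lost when each library was centred on its own median (0.17, adjusted P = 0.301), with 10 kb on either side (0.63, adjusted P = 0.0721), and without HCT15-Pa replicate 2, HCT15-FR replicate 1 or HCT15-FR replicate 2 in turn (adjusted P = 0.0791, 0.142 and 0.122).

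At the DLL4 promoter H3K23su covered 0 and 0 bp in HCT15-Pa and 713 and 633 bp in HCT15-FR. The FR-only region (chr15:41220817-41221727) held all 713 bp of replicate 1, whose peak reached past the TSS over annotated exon and UTR sequence. Replicate 2 held 487 bp of the region, ending upstream of the TSS, and its other promoter bases lay in a separate peak downstream of the TSS. H3K27ac covered 555 and 693 bp of the promoter in HCT15-Pa and 950 and 1010 bp in HCT15-FR, so that H3K23su peaks appeared in HCT15-FR where acetylation was already called in HCT15-Pa. The middle of the region, which lies upstream of the TSS, on the strand of DLL4, is shown as the promoter with this pattern, and it held no match on either strand to the RBPJ string GTGGGAA or to the AP-1 strings given for JAG1:
DLL4 promoter, chr15:41221122-41221421: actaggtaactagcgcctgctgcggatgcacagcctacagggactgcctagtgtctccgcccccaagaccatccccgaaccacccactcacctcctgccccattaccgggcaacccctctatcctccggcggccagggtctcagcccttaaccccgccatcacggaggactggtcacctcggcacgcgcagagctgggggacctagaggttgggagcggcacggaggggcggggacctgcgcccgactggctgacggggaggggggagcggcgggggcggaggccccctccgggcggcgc

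The FR-only regions in the flanks of DLL4 lay nearer to the TSS of another gene, and 1 FR-only region lay in the gene body. The region at chr15:41171571-41172309 was FR-only in H3K23su (656 and 641 bp), overlapped an FR-only H3K27ac region (391 and 315 bp), and lay at −49598 bp from the DLL4 TSS and 5508 bp from the TSS of RHOV. The H3K23su region at chr15:41264162-41264723 (146 and 562 bp) lay 18774 bp from CHAC1, over H3K27ac of all 4 libraries. An H3K27ac region at the 3′ end of DLL4, 8876 bp downstream of its TSS, was FR-only (187 and 488 bp) and overlapped no H3K23su. Of the mean gain of 4560.5 bp in H3K23su, 1602.5 bp came from FR-only regions, 1204.5 bp from regions shared by all 4 libraries and 1753.5 bp from the rest, and 1707.5 bp lay within 2 kb of the TSS of another coding gene. The assignment of these distal regions to DLL4 was not tested.

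Among the receptors, NOTCH1 had promoter peaks in every library of both marks. H3K27ac covered 1277 and 1443 bp of its promoter in HCT15-Pa and 1481 and 1367 bp in HCT15-FR, and the groups overlapped. H3K23su covered 795 and 158 bp there in HCT15-Pa, in 1 peak each, and 1384 and 978 bp in HCT15-FR, in 2 and 3 peaks. The clearest difference, singled out after the values were seen, was a shared region 22601 bp upstream of the TSS (chr9:139462231-139463970), where H3K23su covered 243 and 246 bp in HCT15-Pa and 1404 bp in each HCT15-FR library. H3K27ac at the same place covered 939 and 859 bp against 1324 and 1372 bp.

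Within the NOTCH1 gene body the order was the reverse. H3K23su covered 2325 and 1519 bp in HCT15-Pa and 994 and 1325 bp in HCT15-FR, and H3K27ac 1781 and 3110 bp against 1753 and 1146 bp. The HCT15-FR libraries were below the HCT15-Pa libraries in both marks, for H3K27ac by a margin that was small beside the spread of the HCT15-Pa libraries. No share of coding genes with this order in the gene body is given here. An intronic H3K27ac region 25932 bp downstream of the TSS (chr9:139414255-139414880) was Pa-only, with 428 and 287 bp. Over the whole NOTCH1 window H3K23su covered 4659 and 3552 bp against 5973 and 5591 bp (log2 change 0.46, 95% interval 0.08 to 0.84, adjusted P = 0.0786 in limma), and H3K27ac 7708 and 9336 bp against 8878 and 8124 bp (0.00, −0.27 to 0.27). Neither passed the threshold. Without HCT15-Pa replicate 1 the H3K23su value did (0.63, adjusted P = 0.0264). The H3K23su window includes the TSS of SEC16A, near which 1062.5 bp of the mean difference of 1676.5 bp lay.

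NOTCH2 had the strongest promoter peaks of the 10 genes in both marks. The H3K23su region (chr1:120611054-120612786) had scores of 12.01 and 12.22 in HCT15-Pa and 12.63 and 12.08 in HCT15-FR, and covered 1515, 1501, 1690 and 1606 bp. The H3K27ac region covered 1702 and 1599 bp against 1792 and 1758 bp. HCT15-FR was above HCT15-Pa in both marks, with means that differed by 140.0 and 124.5 bp. NOTCH2 has near-identical partial copies elsewhere on chromosome 1, and reads from the copied part of the gene may have been lost with the requirement for unique mapping.

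In the gene body of NOTCH2 the order of the lines differed between the marks. H3K23su covered 5281 and 6071 bp in HCT15-Pa and 4220 and 3147 bp in HCT15-FR, whereas H3K27ac covered 1911 and 1725 bp against 3974 and 2837 bp. Both H3K23su libraries of HCT15-FR were below those of HCT15-Pa and both H3K27ac libraries above. The share of coding genes with such an order in the gene body is not given here. The 2 Pa-only H3K23su regions lay 101347 and 91166 bp downstream of the TSS, and the first of them, over an exon, overlapped H3K27ac present in all 4 libraries. Counted with the body were 3 FR-only H3K27ac regions, at 72183 and 53017 bp downstream and at 30934 bp upstream of the TSS used here. The last of them spans the upstream end of the annotated gene. The first and the last overlapped H3K23su of all 4 libraries. The H3K27ac region at 53017 bp was among the weakest of its list, at percentile 1.34.

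Over the whole NOTCH2 window H3K27ac rose from 5131 and 4938 bp to 7824 and 7835 bp, a log2 change of 0.59 (95% interval 0.34 to 0.84, adjusted P = 0.0102 in limma). The call was lost with each library centred on its median (0.38, adjusted P = 0.0517), in the stronger 50% of each list (0.10, adjusted P = 0.721), and without HCT15-FR replicate 1 (adjusted P = 0.0537) or replicate 2 (0.0554). H3K23su covered 8105 and 8725 bp against 8749 and 8336 bp, and the groups overlapped. The change differed between the marks by 0.57 (95% interval 0.23 to 0.90), which did not pass the adjustment over 18192 genes (adjusted P = 0.153, line by mark term in limma). Upstream of the gene, FR-only regions of both marks overlapped 41483 bp from the TSS (chr1:120653523-120653995 for H3K27ac, with 473 and 271 bp).

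NOTCH3 was the receptor with least promoter signal. H3K23su covered 0 and 283 bp of its promoter in HCT15-Pa and 0 and 0 bp in HCT15-FR. H3K27ac covered 0 and 0 bp against 400 and 231 bp, from an intronic region 1837 bp downstream of the TSS, with scores of 3.31 and 3.79, and in HCT15-FR replicate 2 also from the edge of an upstream peak with a score of 4.37. It was also the only one of the 10 genes whose H3K23su window coverage was lower in both HCT15-FR libraries, with 3944 and 3747 bp in HCT15-Pa and 3444 and 3714 bp in HCT15-FR (log2 change −0.09, 95% interval −0.46 to 0.27, adjusted P = 0.689 in limma), an order that 12.2% of coding genes showed. Close to the gene the difference was larger. With 10 kb on either side H3K23su covered 1078 and 1389 bp in HCT15-Pa and 0 and 182 bp in HCT15-FR, and the change passed the threshold (−1.56, adjusted P = 0.0228), where 2.35% of 16603 genes were called lower.

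The highest ranking Pa-only H3K23su region of the flanks lay upstream of NOTCH3, with scores of 4.42 and 6.11. It covered 603 and 557 bp in HCT15-Pa and overlapped H3K27ac that was present in some libraries.

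HES1, the best known Notch target, was higher in HCT15-FR in both marks. H3K23su covered 2849 and 4553 bp of its window in HCT15-Pa and 7117 and 6718 bp in HCT15-FR, a log2 change of 0.85 (95% interval 0.37 to 1.33, adjusted P = 0.0276 in limma). H3K27ac covered 4579 and 5972 bp against 9389 and 10470 bp, a log2 change of 0.86 (95% interval 0.54 to 1.19, adjusted P = 0.00728). The groups did not overlap in either mark, with HCT15-FR above HCT15-Pa, as at 48.1% of coding genes for H3K23su and 48.3% for H3K27ac. The number of peaks was also higher, at 8 and 7 against 14 and 11 for H3K23su and 11 and 10 against 13 and 16 for H3K27ac. The share of coding genes with that order of peak numbers is not given here. The change did not differ between the marks beyond its error (difference 0.01, 95% interval −0.54 to 0.56). With each library centred on its median, the H3K27ac call was kept (0.65) and the H3K23su call was lost (0.61, adjusted P = 0.0922). The H3K23su call was also lost in the stronger 50% of each list (1.501, adjusted P = 0.0615) and with 10 kb on either side (0.66, adjusted P = 0.198), and without HCT15-Pa replicate 1 the value was 0.55 and still called. The H3K27ac call was lost with 10 kb (0.54, adjusted P = 0.0906). No other coding gene has its TSS in the HES1 window.

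At the HES1 promoter the H3K27ac peaks stood on both sides of the TSS. A region 1321 bp upstream was present in all 4 libraries, with 690 and 727 bp in HCT15-Pa and 707 and 686 bp in HCT15-FR. A region 1077 bp downstream, over exons of HES1 (chr3:193854515-193855512), was FR-only, with 924 and 969 bp and scores of 5.04 and 5.11. Promoter coverage was therefore 690 and 727 bp in HCT15-Pa and 1631 and 1655 bp in HCT15-FR. H3K23su gave 250 and 0 bp against 146 and 278 bp there and did not separate the lines. The 300 bases before the TSS lie between these H3K27ac regions and are shown because they hold 1 match to the RBPJ string GTGGGAA (capitals), as did 6.41% of the coding promoters of this length:
HES1 promoter, chr3:193853637-193853936: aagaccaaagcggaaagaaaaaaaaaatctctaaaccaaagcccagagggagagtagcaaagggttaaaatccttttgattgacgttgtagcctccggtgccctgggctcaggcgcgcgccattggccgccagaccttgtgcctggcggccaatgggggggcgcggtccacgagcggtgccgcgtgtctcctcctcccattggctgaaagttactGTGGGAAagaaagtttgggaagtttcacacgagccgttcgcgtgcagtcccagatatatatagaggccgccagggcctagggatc
Among the 10 Notch genes, HES1 and HEY1 held such a match in this stretch.

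Most of the HES1 difference came from distal regions. A region downstream of the gene was FR-only in H3K23su, with 972 and 591 bp, and overlapped an FR-only H3K27ac region with 633 and 520 bp. Upstream of HES1, H3K27ac was FR-only 14131 bp (1239 and 1133 bp) and 11827 bp (632 and 526 bp) from the TSS, and H3K23su peaks stood in a single library at each place. The second region holds 1 match to the RBPJ string, read on the other strand and in capitals, as did 7.24% of all H3K27ac regions of this length:
HES1 −11827 bp, chr3:193841960-193842259: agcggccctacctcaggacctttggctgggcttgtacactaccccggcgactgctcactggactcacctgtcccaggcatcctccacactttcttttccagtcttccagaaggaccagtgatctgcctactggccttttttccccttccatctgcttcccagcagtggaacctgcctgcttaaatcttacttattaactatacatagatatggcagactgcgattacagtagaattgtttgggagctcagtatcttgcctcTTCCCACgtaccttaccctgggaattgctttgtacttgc
H3K23su was FR-only at 23420 bp (410 and 546 bp) and Pa-only at 18755 bp upstream (411 and 891 bp), both over H3K27ac present in all 4 libraries. The middle 300 bases of that Pa-only region also held 1 match to the RBPJ string. Among the named regions of all the genes, 1 of 14 for H3K23su and 3 of 19 for H3K27ac held such a match.

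The mean gain of H3K27ac in the HES1 window was 4654.0 bp, of which 3288.0 bp came from FR-only regions. At JAG1, 5384.5 of 6603.5 bp came from regions that held a peak of all 4 libraries. For H3K23su at HES1, FR-only regions gave 1583.0 of 3216.5 bp and shared regions 1366.0 bp. The 2 genes with the largest H3K27ac changes thus differed in how the coverage was gained, mostly in FR-only regions at HES1 and in shared regions at JAG1. The shared regions of JAG1 include the widest one, where the HCT15-Pa peaks did not overlap each other. This describes these libraries, and no test was made.

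**Figure D3:**
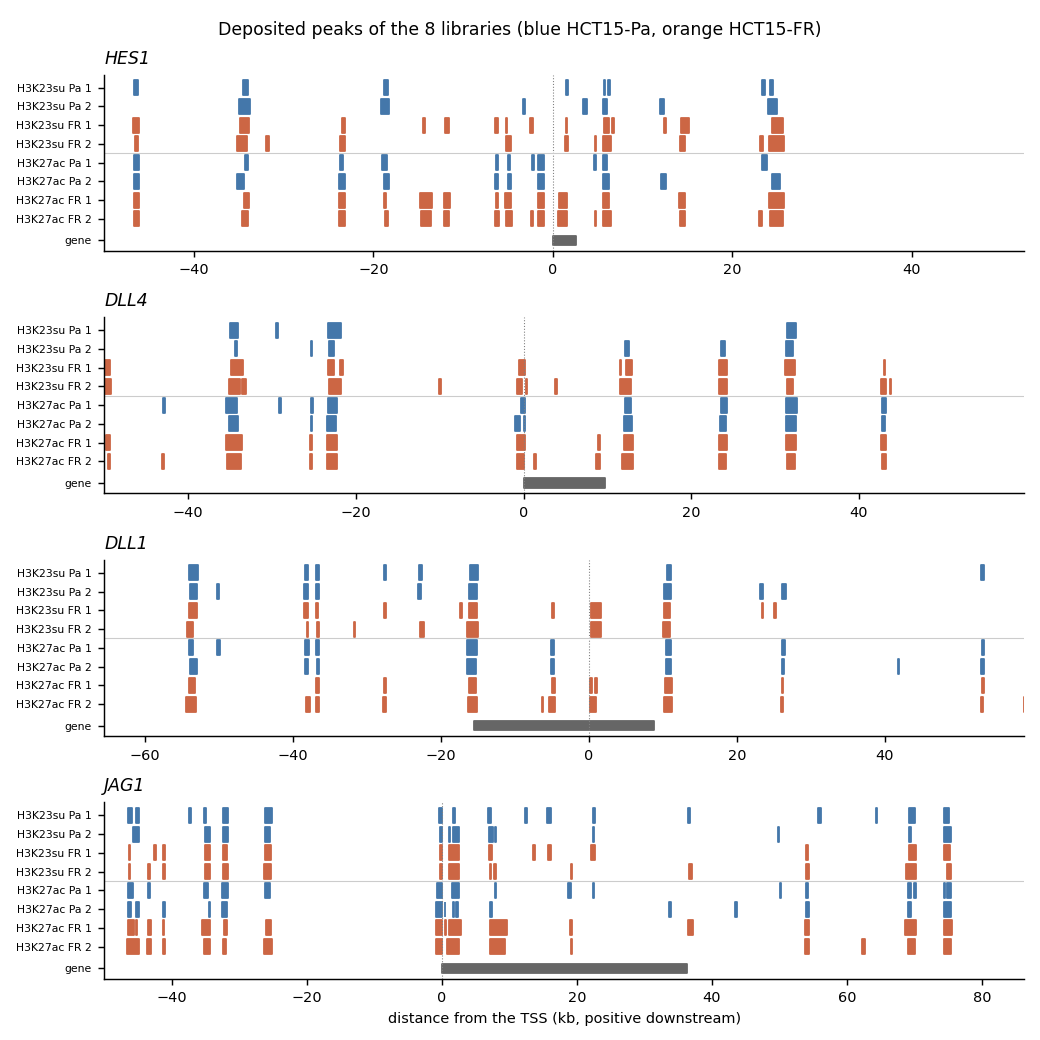
Peaks of the 8 libraries at HES1, DLL4, DLL1 and JAG1 by distance from the TSS (x axis, kb, positive downstream), with HCT15-Pa in blue, HCT15-FR in orange and the annotated gene in grey. The peaks just downstream of the DLL1 TSS are in HCT15-FR rows of both marks alone, and the JAG1 intron shows short H3K27ac peaks in HCT15-Pa and a wide one in HCT15-FR.

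HEY1, the other target gene, had few peaks. H3K27ac covered 1006 and 760 bp of its promoter in HCT15-Pa and 1378 and 768 bp in HCT15-FR, with a peak in every library. H3K23su gave 0 and 440 bp against 438 and 423 bp. Over the window H3K23su covered 866 and 1126 bp against 1259 and 2226 bp (log2 change 0.56, 95% interval −0.10 to 1.21, adjusted P = 0.180 in limma) and H3K27ac 2355 and 1591 bp against 2832 and 1994 bp (0.24, −0.32 to 0.79, adjusted P = 0.498). HEY1 had no line-specific region in either mark, and its intervals were the widest of the 9 genes tested. ATOH1 had 0 peaks in its window of 102212 bp in all 8 libraries, as had 7.37% of coding genes for H3K23su and 4.28% for H3K27ac.

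**Figure D4:**
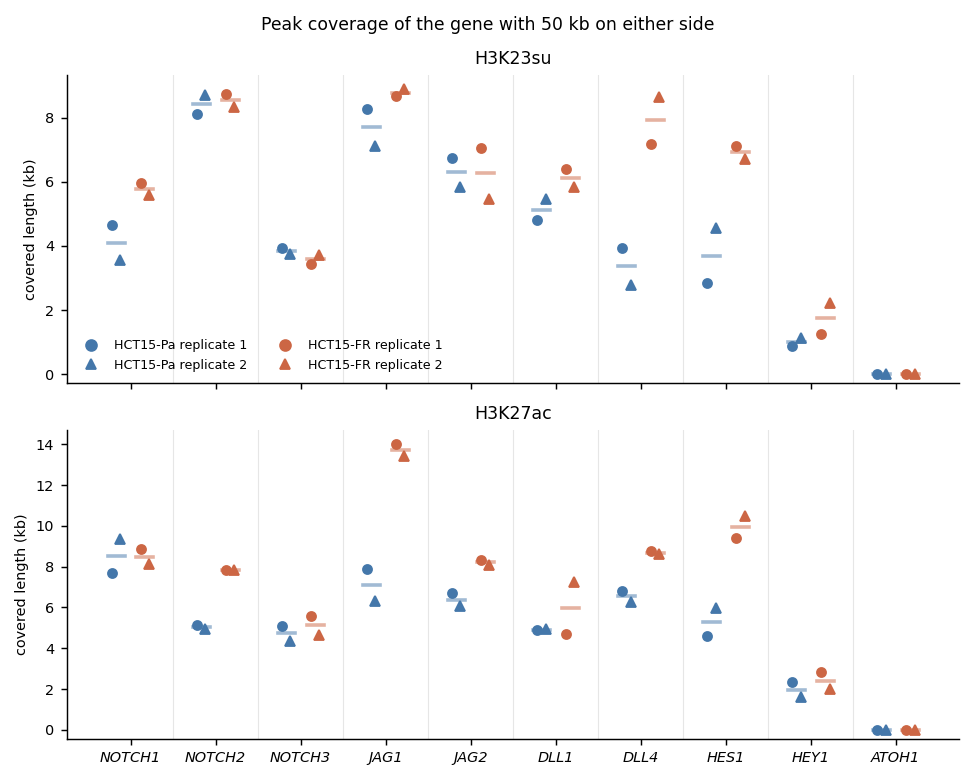
Length covered by peaks in the gene with 50 kb on either side (y axis, kb) for H3K23su (top) and H3K27ac (bottom). Points are single libraries, blue HCT15-Pa and orange HCT15-FR, and bars are means of 2. For H3K27ac at JAG1 the HCT15-FR libraries stand at 13999 and 13436 bp and the HCT15-Pa libraries at 7894 and 6334 bp.

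In the limma fits over all coding genes, 2 of the 9 Notch genes with peaks were called higher in HCT15-FR for H3K23su (DLL4 and HES1), beside 20.6% of all genes, and 4 for H3K27ac (JAG1, HES1, NOTCH2 and DLL4), beside 19.6%. None of the 9 was called lower in either mark, beside 3.64% and 4.09%. The median log2 change of the 9 genes was 0.23 for H3K23su, where that of all genes was 0.24, and 0.34 for H3K27ac, where that of all genes was 0.18. With each library centred on its median, 4.98% and 7.24% of genes were called higher, and DLL4 kept its call for H3K23su (0.90) and HES1 and JAG1 theirs for H3K27ac (0.65 and 0.70). A difference between the marks in the size of the change was called for 0 of 18192 genes. Among the Notch genes it was largest at DLL4 (−0.75, H3K27ac less H3K23su, adjusted P = 0.168) and JAG1 (0.72, adjusted P = 0.129).

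**Figure D5:**
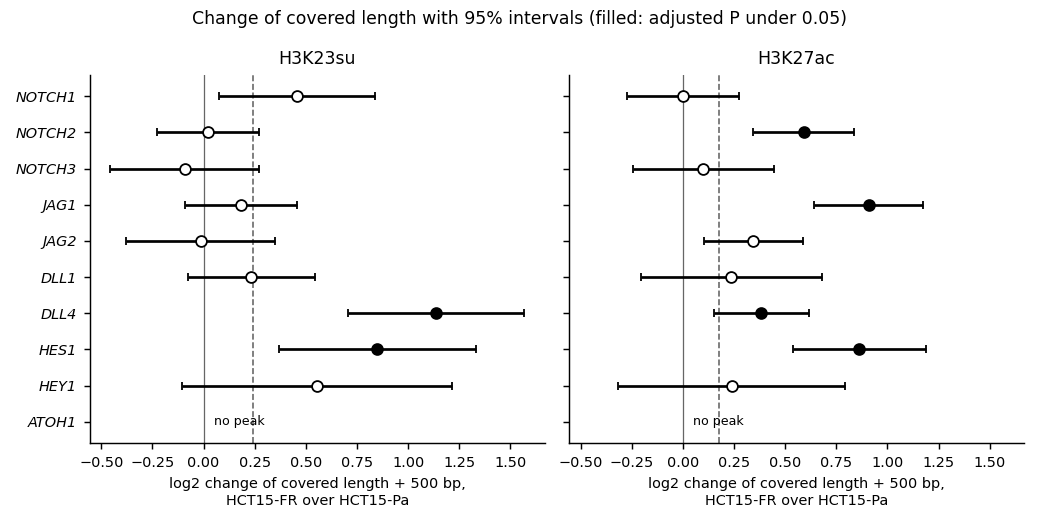
Log2 change of covered length + 500 bp from HCT15-Pa to HCT15-FR (x axis) for each Notch gene, with 95% intervals from limma. Filled points have an adjusted P under 0.05, the solid line is 0 and the dashed line the median of all coding genes (0.24 for H3K23su and 0.18 for H3K27ac). HES1 and DLL4 are filled in both panels, JAG1 and NOTCH2 for H3K27ac.

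Most H3K23su regions around these genes overlapped H3K27ac, and the share depended on the overlap asked for. In HCT15-Pa, 41 of the 51 H3K23su regions present in both libraries overlapped an H3K27ac region present in both libraries (80.4%, exact 95% binomial interval 66.9 to 90.2), beside 72.4% over the genome. In HCT15-FR it was 55 of 61 (90.2%, 79.8 to 96.3), beside 80.3%. Where a library had to cover 50% of a region to hold it, the share was 50.0% in HCT15-Pa, beside 64.6% over the genome, and 86.7% in HCT15-FR, beside 77.4%. In the other direction, 62.1% of H3K27ac regions overlapped H3K23su in HCT15-Pa, beside 64.4%, and 66.7% in HCT15-FR, beside 69.0%. In the stronger 50% of each list these were 37.8% and 45.7%, beside 59.3% and 65.7%. The intervals cover counting error only. Coverage by H3K27ac exceeded that by H3K23su at NOTCH1 by 0.75 on the log2 scale (adjusted P = 0.000325 in limma with the line in the model), and 34.1% of genes were called in that direction, the H3K27ac peaks having been called with the broad option. NOTCH2 was the only Notch gene called the other way, at −0.40 (adjusted P = 0.00989), beside 3.65% of genes, and both calls were kept in the 11 alternatives run.

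Of 48 other genes of the pathway, 13 were called higher in HCT15-FR for H3K23su and 10 for H3K27ac, and 0 were called lower in either mark, beside the shares of all genes given above. The median log2 change was 0.31 for H3K23su and 0.17 for H3K27ac. MAML2, a Mastermind-like coactivator, had the largest change in both marks. H3K23su covered 5341 and 7152 bp of its window in HCT15-Pa and 16648 and 15115 bp in HCT15-FR (log2 change 1.29, adjusted P = 0.00523 in limma), and H3K27ac 6532 and 6549 bp against 19462 and 19753 bp (1.51, adjusted P = 0.000560). Its promoter was FR-only for H3K23su, with 521 and 707 bp, over H3K27ac in all 4 libraries, the pattern seen at DLL4.

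Other coactivators and the DNA-binding partner were called as well. MAML3 gave 0.75 for H3K23su and 0.82 for H3K27ac (adjusted P = 0.0192 and 0.00258 in limma), with H3K23su at its promoter in HCT15-FR alone but over only 80 and 103 bp. RBPJ gave 0.60 and 0.56 (adjusted P = 0.0130 and 0.0120), with promoter peaks in all 4 libraries of both marks. LFNG, a glycosyltransferase that modifies Notch receptors, gave 0.88 and 0.67 (adjusted P = 0.00762 and 0.00983) and had no promoter peak in either mark. The corepressor SPEN (0.61 for H3K23su, adjusted P = 0.0112) and the acetyltransferase KAT2B (0.99 for H3K27ac, adjusted P = 0.00756) were also called. HES5, a further HES repressor, was called for H3K23su, with 4006 and 4417 bp against 8144 and 9029 bp (0.95, adjusted P = 0.00718), and carried no promoter peak. The HES2 promoter was FR-only for H3K27ac, with 755 and 788 bp, and that of MFNG Pa-only, with 998 and 463 bp.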

How the data were processed

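CUT&Tag libraries for H3K23su and H3K27ac were made from HCT15-Pa and HCT15-FR cells, 2 per mark and line, about 50000 cells each. According to the study's methods and the submitters' processing notes, the authors ran FastQC, mapped reads to hg19 by Bowtie2, filtered them by SAMtools to unique, proper pairs free of duplicates, and used MACS2 on every library by itself (broad option for H3K27ac). HOMER 4.10 and deepTools are also named. The deposited lists hold positions and, per the file headers, a −log10 P value for each peak. The study's methods name MACS2 as the peak caller and do not describe this score. The score was used for filters and ranks within a list. No read counts or signal were used, so depth behind a peak is unknown here.

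For each mark, overlapping peaks from the 4 libraries were joined into regions, and 1 bp of overlap sufficed for a library to count as holding a region. Covered length per gene window was compared by limma 3.58.1 (R 4.3.3, trend) on log2(bp + 500) over all coding genes covered in at least 2 of the 4 libraries, or of each mark's 4 in the 8-library fits. Tests were two-sided, with Benjamini-Hochberg adjustment over all genes tested and a threshold of 0.05. An exact permutation test of 2 libraries against 2 cannot give a P below 0.333, so none was used. In simulated data built on these windows, 66 of 66 changes of 4-fold were called for each mark, and 31 of 67 (H3K23su) and 21 of 67 (H3K27ac) changes of 2-fold. The simulated spread between libraries was larger than the observed median SD on the log2 scale, 0.156 for H3K23su and 0.131 for H3K27ac. These shares therefore do not give the sensitivity of the fits to the real libraries. GENCODE release 44, in its version for GRCh37, supplied genes and TSSs (MANE Select transcripts), and that genome the sequences. No peak ran past a chromosome end of that genome. Scripts ran in Python 3.11.15 with pysam 0.24.0, scipy 1.17.1, pandas 2.3.3, matplotlib 3.10.9 and numpy 2.4.6.

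All 10 genes are described. Regions named are the FR-only and Pa-only ones in a promoter or gene body and, in the flanks, up to 6 of each class per mark whose weaker peak ranks highest. Other pathway genes are named for a line-specific promoter or one of the 6 smallest adjusted P values per mark. A gene that this rule names and some region sequences are not reported here. The genes and lists were chosen with earlier results of these data known. Alternatives were other list filters, merging, windows, pseudocounts and centring, the replicate number as a block, and leaving out each library. PECAM1, listed as an endothelial marker, did not match the annotation by symbol. Promoter tables of another genome build and the study's other assays were not used here.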

Additional observations from a re-analysis of the deposited data

Results flagged for a closer look

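In the gene body of NOTCH2 the lines differed in opposite directions in the 2 marks. From HCT15-Pa to HCT15-FR the mean covered length changed by −1992.5 bp for H3K23su and by 1587.5 bp for H3K27ac, with both libraries of each line on the same side. This difference over the gene body was not tested, and the share of coding genes that show it is not given here. Over the whole window the line by mark term of limma gave 0.57 on the log2 scale for NOTCH2 and did not pass (adjusted P = 0.153). The part of unique mapping in a gene with near-identical copies was not tested.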

How the results depend on the processing

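Counts of line-specific regions in the Notch windows depended on the settings. FR-only H3K23su regions were 11, with 3 within 10 kb and 20 within 100 kb, and 16 to 35 with 1 library left out, where fewer lists had to hold or lack a peak. Pa-only H3K23su regions were 6, with 2 in the stronger 50% of each list and 9 to 26 with 1 library left out. FR-only H3K27ac regions were 17, with 9 in the stronger 50%, 8 within 10 kb, 31 within 100 kb and 22 to 40 with 1 library left out. Pa-only H3K27ac regions were 5, with 3 in the stronger 50%, 2 where 50% of the region had to be covered, 8 within 100 kb and 7 to 20 with 1 library left out. Equal list lengths, a common minimum score and merging within 500 bp kept these counts within 1.5 times. Promoters with a peak in all 4 libraries were 3 for H3K23su and 6 for H3K27ac, fell to 1 and 3 in the stronger 50%, and stood at 3 to 4 and 6 with 1 library left out.

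Same-numbered libraries showed little shared deviation from their group means in covered length, with correlations of −0.00125 to 0.0158 over 18495 genes. Whether they were paired in the experiment is not given in the labels. With the replicate number as a block, regions found in HCT15-FR and not HCT15-Pa were 42 within number 1 and 45 within number 2 for H3K23su (33 and 31 the other way) and 42 and 51 for H3K27ac (29 and 25). The limma fit with the block called 4638 genes higher and 756 lower for H3K23su and 3487 and 756 for H3K27ac. NOTCH1 then passed for H3K23su (adjusted P = 0.0486), and no other call of the 10 genes changed.

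Of all genes, 3760 were called higher and 665 lower for H3K23su. Centring each library on its median gave 910 higher and 976 lower and moved the median of all genes from 0.24 to 0.01. The stronger 50% gave 1348 and 219, 10 kb on either side 1340 and 390, and leaving out 1 library 1654 to 3848 and 289 to 389. For H3K27ac they were 3694 and 772, with 1367 and 1396 after centring, 2148 and 502 in the stronger 50%, 1461 and 376 with 10 kb, and 1371 to 4195 and 364 to 622 with 1 library left out. The Notch genes called higher for H3K23su were 2, with 1 after centring, 1 in the stronger 50% (NOTCH1, 1.73) and 2 to 3 with 1 library left out, and 1 was called lower with 10 kb (NOTCH3). For H3K27ac they were 4, with 2 after centring, 2 with 10 kb (JAG1 and NOTCH2) and 2 to 5 with 1 library left out. Without HCT15-FR replicate 1 or replicate 2 they were JAG1 and HES1.

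The difference between the marks was called for 0 genes, with 6 higher and 4 lower at a pseudocount of 100 bp and 0 to 2 and 0 to 10 with 1 library left out, and for 0 Notch genes throughout. At an unadjusted P under 0.05 it was 925 higher and 1473 lower. H3K27ac exceeded H3K23su at 6200 genes and fell short at 664, or at 2526 and 1739 after centring, and 5 Notch genes were called higher, 1 after centring and 2 to 6 with 1 library left out. The overlap of H3K23su regions with H3K27ac was 80.4% in HCT15-Pa, with 50.0% where 50% of a region had to be covered, and 90.2% in HCT15-FR, with 78.6% in the stronger 50%.

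Some log2 changes that were not called reversed. From HCT15-Pa to HCT15-FR in H3K23su, centring gave −0.0024 for DLL1, −0.053 for JAG1 and −0.22 for NOTCH2. The stronger 50% gave −0.0094 for HEY1, 0.64 for JAG2 and −0.039 for NOTCH2, equal list lengths −0.030 for NOTCH2 and 10 kb −0.25 for NOTCH2. In H3K27ac, centring gave −0.21 for NOTCH1 and −0.11 for NOTCH3, equal list lengths −0.040 and −0.17, the stronger 50% −0.34 and −0.25, and 10 kb −0.41 for NOTCH1. With 1 library left out, the H3K23su change ranged from −0.18 to 0.16 for JAG2 and from −0.029 to 0.071 for NOTCH2, and the H3K27ac change from −0.050 to 0.52 for DLL1, −0.13 to 0.13 for NOTCH1 and −0.024 to 0.23 for NOTCH3. The difference between the marks was −0.011 for HES1 at a pseudocount of 100 bp, and ranged from −0.28 to 0.29 for DLL1 and −0.29 to 0.31 for HES1 with 1 library left out, and H3K27ac less H3K23su from −0.17 to 0.056 for DLL1. The causes were not tested. JAG1 kept its H3K27ac call in all 12 alternatives, HES1 (H3K27ac) and DLL4 (H3K23su) in 11 of 12 each, HES1 (H3K23su) in 9, NOTCH2 (H3K27ac) in 8 and DLL4 (H3K27ac) in 7.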

Other observations

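Genes of the secretory lineage, which Notch signalling holds back in the intestine and ATOH1 promotes, were looked at from a list of 8. Of the 7 that could be tested for H3K23su, 3 were called higher in HCT15-FR and 0 lower in limma, beside 20.6% and 3.64% of all genes, with a median log2 change of 0.60. For H3K27ac it was 3 higher and 0 lower of 8, beside 19.6% and 4.09%, with a median of 0.22 and a lowest change of −0.39. MUC2, SPINK4 and NEUROG3 were not called for H3K27ac. This mark covered 624 and 784 bp of the NEUROG3 window in HCT15-Pa and 219 and 668 bp in HCT15-FR. At MUC2 it covered 9243 and 8993 bp against 9057 and 9586 bp. An FR-only H3K27ac region lay in 5 of the 8 windows, beside 53.4% of coding genes, and a Pa-only one in 4, beside 33.9%. SPDEF, a factor of goblet and Paneth cell maturation, was called in both marks. H3K23su covered 3395 and 2863 bp of its window in HCT15-Pa and 6640 and 6845 bp in HCT15-FR (log2 change 1.00, adjusted P = 0.00836 in limma), and H3K27ac 3817 and 3548 bp against 6446 and 7133 bp (0.80, adjusted P = 0.00696). AGR2, a protein disulfide isomerase of mucus-producing cells, was called for H3K27ac (1.42, adjusted P = 0.00234) and H3K23su (0.62, adjusted P = 0.0445).

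The promoter of TFF3, a trefoil peptide of goblet cells, was FR-only in both marks, with 309 and 464 bp of H3K23su and 518 and 519 bp of H3K27ac, and its window passed the threshold in neither (adjusted P = 0.0680 and 0.560 in limma). SPDEF was FR-only at the promoter for H3K27ac (363 bp in each library), and GFI1, a factor downstream of ATOH1, for H3K23su (346 and 507 bp). REG4 was FR-only for H3K23su over 146 and 178 bp and was called for H3K27ac over its window (0.84, adjusted P = 0.0193). FR-only promoters were 1.87% of coding genes for H3K23su and 1.42% for H3K27ac. CDX1, a colon epithelium factor among the marker genes, was likewise FR-only at the promoter in both marks, with 574 and 456 bp of H3K23su and 665 and 508 bp of H3K27ac.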
